A study of Mus musculus with 4 samples.

Results

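The cytosolic ribosomal protein genes encode the protein subunits of the ribosome that works outside mitochondria. They were taken by symbol: Rpl or Rps followed by a number, with an optional a, x or l, plus Rpsa, Rplp0, Rplp1 and Rplp2. The rule found 80 of the 22690 genes in the deposited table, 31 of the small subunit and 49 of the large subunit, and it used no measured value. Genes entered the test when their mean over the libraries reached 10 normalized counts, as 78 members and 14480 genes in all did. Rpl10l and Rpl39l, copies of Rpl10 and Rpl39 known from testis, did not.

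The 4 libraries are mRNA from retinal cells of C57BL/6 mice at postnatal day 2, taken by flow sorting at a 4N DNA content, a gate that holds cells that have copied their DNA and not yet divided. In 2 libraries the cells were GFP-negative and wild type. In the other 2 they were GFP-positive and had Casz1 deleted conditionally (cKO); Casz1 is a zinc finger factor that acts in retinal progenitors. Cells of both groups were kept for 30 minutes in serum-free medium before the sort. The labels do not name the driver of the recombinase or of GFP, nor the number of animals, so genotype and sorted fraction cannot be told apart. The study comprised 2 independent experiments. The table's columns carry 2 tags, each shared by a wild-type and a cKO library; they are called A and B here, and the labels do not say what they stand for.

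A ribosome joins a small subunit, which reads the mRNA, to a large subunit, which forms the peptide bond and carries the stalk that recruits elongation factors. Most of its proteins are needed in equal copy number, and their mRNAs are short, abundant and known for a start in a run of pyrimidines, the terminal oligopyrimidine or TOP motif, through which mTOR signalling controls their translation. Dividing progenitors make many ribosomes, so these mRNAs take a sizeable share of an mRNA library.

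The following 30 bases around the annotated start of 8 of the genes are shown because a pyrimidine run at the start is the sequence feature the family is known for. They were read from RefSeq promoters (GRCm38.p6), 5′ to 3′ on the gene's strand, 15 bases on each side of the start. Capitals mark the longest unbroken run of C and T in the window.
Rps6: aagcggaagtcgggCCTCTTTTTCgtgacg
Rps9: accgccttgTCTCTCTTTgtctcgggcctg
Rps27: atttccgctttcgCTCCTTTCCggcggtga
Rps27l: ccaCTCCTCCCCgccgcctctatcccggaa
Rpl4: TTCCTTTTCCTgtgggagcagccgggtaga
Rplp2: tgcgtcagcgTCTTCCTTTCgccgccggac
Rpsa: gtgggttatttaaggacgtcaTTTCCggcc
Rplp0: gTCTTCgggtttcgaggaccgcctggttct
The windows lie at chr4:86857353-86857382 on the minus strand (Rps6), chr7:3704026-3704055 (Rps9), chr3:90213634-90213663 on the minus strand (Rps27), chr9:66946071-66946100 (Rps27l), chr9:64173372-64173401 (Rpl4), chr7:141447636-141447665 (Rplp2), chr9:120127751-120127780 (Rpsa) and chr5:115559452-115559481 (Rplp0). Where no strand is given it is plus. Rps27l has another RefSeq start, where the longest run is 4. In Rps6 the run of 10 starts 1 base before the annotated start, and in Rps27 the run of 9 starts 2 bases before it. In Rpl4 the run of 11 starts 15 bases before the annotated start, at the edge of the window. The run of 9 shown for Rps27l starts 12 bases before its start. Both of these runs end before the annotated start. Rpsa and Rplp0 show runs of only 5.

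RefSeq promoters were matched by symbol for 60 of the 80 genes, with 72 annotated starts. A run of at least 8 C or T within the 50 bases around the start was present at 33 of these starts (45.8%), against 19.3% of the 13625 starts of all tested genes and 19.7% of all 32851 starts in the table. The letters CTTTCC lay on the sense strand of the same window at 15.3% of the ribosomal protein starts, against 2.26% for tested genes and 2.46% for all. On either strand it was at 12 of the 72 starts, against 4.24% and 4.68%, and the motif overlaps with the pyrimidine run. CCGGAAG, the core of an ETS factor site, was found on either strand of the 300-base promoter for 36.1% of ribosomal protein starts, against 15.5% and 8.86%. For TATAAA the shares on either strand were 8.33%, 7.07% and 13.6%. A match is a description of the letters, not a site. Among tested ribosomal protein genes with a promoter, the 31 with the run had a median log2 difference between cKO and wild type of 0.39. The 27 without it also had 0.39.

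Depth differed between the libraries. The table's normalized counts were whole multiples of 1 value in each library, and this gave back 75832360 and 83753377 reads in genes for wild-type libraries A and B, 22326119 for cKO A and 89473701 for cKO B. The cKO A library also listed 9179 genes at 0, against 5793 to 6169 in the others. Over all 14480 tested genes its log2 ratio to each other library had an SD of 1.58 to 1.71, while the ratios among the other 3 had SDs of 0.335 to 0.434. The main comparisons below are therefore also given without it or by tag. Casz1 itself stood at 13162 and 11995 normalized counts in wild type and 8687 and 10772 in cKO, a log2 difference of -0.38 (SE 0.19, limma adjusted p = 0.771). The sources used here do not say which exons were deleted, so a count over the whole gene does not check the labels.

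Ribosomal protein genes took a larger share of the reads in both cKO libraries than in either wild-type library. The share of all reads in genes was 2.47% in wild-type A (95% Wilson interval 2.470 to 2.477), 3.28% in wild-type B, 3.48% in cKO A and 3.74% in cKO B. The intervals cover the counting error of reads only, not the spread between libraries, and the reads carry no molecular identifiers. The groups did not overlap, but the gap from wild-type A to wild-type B was larger than the gap from wild-type B to either cKO library. The means were 2.88 ± 0.573% in wild type and 3.61 ± 0.190% in cKO (SD, n = 2 each), a ratio of 1.25. An exact two-sided permutation test gave p = 0.333, which is the smallest p that 2 libraries against 2 can give. With the 50 other genes of most reads left out of the total, the shares were 2.71, 3.62, 3.90 and 4.17% in the same order. In sorted bulk RNA, a different mix of cells and a different amount of mRNA per cell cannot be told apart.

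**Figure D1:**
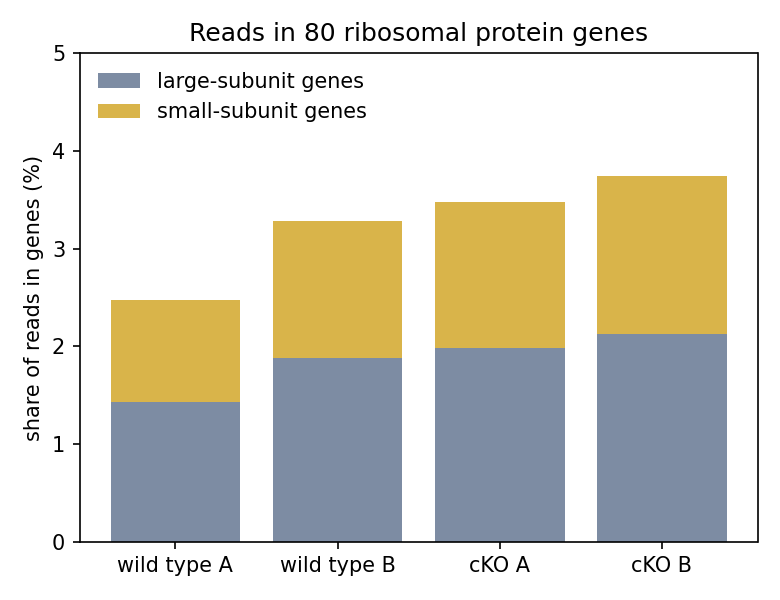
Share of all reads in genes (%) that fell in the 80 ribosomal protein genes, for each of the 4 libraries, with bars split into large-subunit and small-subunit genes. The total was 2.47% in wild-type A, 3.28% in wild-type B, 3.48% in cKO A and 3.74% in cKO B.

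Small-subunit genes took 1.04, 1.40, 1.49 and 1.61% of reads in wild-type A, wild-type B, cKO A and cKO B, and large-subunit genes took 1.44, 1.89, 1.98 and 2.13%. Genes of both subunits were thus ordered the same way over the libraries. The ratio of small-subunit to large-subunit reads was 0.723 and 0.741 in wild type and 0.754 and 0.758 in cKO, with means of 0.732 ± 0.0129 and 0.756 ± 0.00308 (SD, n = 2; exact permutation p = 0.333, the smallest possible). That direction did not hold by another measure. As the ratio of the median small-subunit to the median large-subunit gene, the wild-type mean was 1.16 and the cKO mean 1.13.

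No ribosomal protein gene passed the test between cKO and wild type. With limma on log2(normalized count + 1), adjusted over all genes, 0 of 78 members and 0% of all genes tested were under 0.05, and the lowest adjusted p among members was 0.771. An unadjusted p under 0.05 was reached by 3 members, Rpsa, Rplp0 and Rpl18, against 1.89% of all genes. By edgeR 0 members passed (3 unadjusted, 1.44% of all genes) and by DESeq2 0 members passed (18 unadjusted, 2.55% of all genes), with 1 gene of the whole table, 0.00691%, called. In the authors' deposited table no member had an adjusted p under 0.05, where 51 of the tested genes did.

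The direction was nearly uniform. The log2 difference was above 0 for 77 of 78 members, against 46.7% of all genes tested, and the member below 0 was Rpl3l, a copy of Rpl3 known from heart and skeletal muscle. The median over members was 0.40, a fold of 1.32, with quartiles of 0.35 and 0.46, while the median over all genes was -0.03. Without Rpl3l the values ran from 0.10 to 0.58. Small-subunit genes had a median of 0.43 and large-subunit genes 0.39. The typical member stood at a median of 15864 normalized counts in wild-type A, 21790 in wild-type B, 23814 in cKO A and 25811 in cKO B.

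Both cKO libraries lay above both wild-type libraries for 61 of 78 members, against 17.2% of all genes. The opposite order was seen for 1 member, Rpl3l, against 22.3% of all genes. In the other 16 the groups overlapped. In all 16 the overlap came from cKO A lying below wild-type B, and in none did cKO B lie below wild-type B. Rpl21 alone had cKO A below wild-type A. With the libraries rescaled to equal medians the count of 61 became 69, where 23.0% of all genes had that order, and with TMM scaling it was 60, where 18.3% did.

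The wild-type libraries differed from each other about as much as the groups did. Wild-type B was above wild-type A in 78 of 78 members, against 50.6% of all genes, with a median log2 ratio of 0.46 over members and 0.0037 over all genes. Wild-type A was the lowest of the 4 libraries for 76 members, against 21.1% of all genes. The cKO A library was above cKO B in 24 members, against 46.3% of all genes, with a median of -0.09 that became 0.04 after rescaling to equal medians. The highest library was cKO B for 53 members and cKO A for 24, against 2065 and 5476 of the 14480 genes tested.

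**Figure D2:**
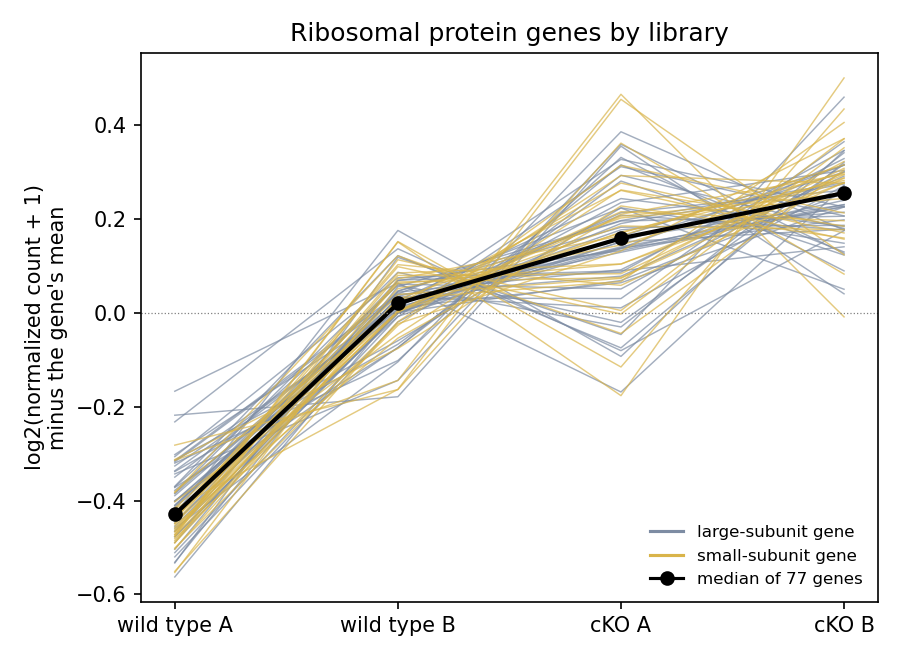
Each line is 1 of the 77 tested genes other than Rpl3l, as log2(normalized count + 1) minus the gene's mean over the 4 libraries, for wild-type A, wild-type B, cKO A and cKO B; the black line is the median gene. Lines are drawn to follow a gene and imply no order of libraries. The step from wild-type A to wild-type B, a median of 0.46, is the steepest, and the genes fan out most in cKO A.

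Within each tag the cKO library was the higher one. The median log2 ratio of cKO A to wild-type A was 0.57, above 0 in 76 of 78 members against 46.8% of all genes. The ratio of cKO B to wild-type B had a median of 0.23, above 0 in 77 of 78 members against 49.3% of all genes. Across tags, cKO A against wild-type B gave a median of 0.14 and cKO B against wild-type A gave 0.70. The size therefore depended on which wild-type library was the reference. With wild-type A left out the median was 0.17, with 74 of 78 members above 0, and with wild-type B left out it was 0.62. Leaving out cKO A gave 0.45 and leaving out cKO B gave 0.37.

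Members differed least from each other in the ratio of the B libraries. Over 77 members the SD of the log2 ratio of cKO B to wild-type B was 0.068, against 0.335 over all tested genes. It was 0.123 between the wild-type libraries, 0.161 between cKO A and wild-type A, and 0.216 between the cKO libraries.

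**Figure D3:**
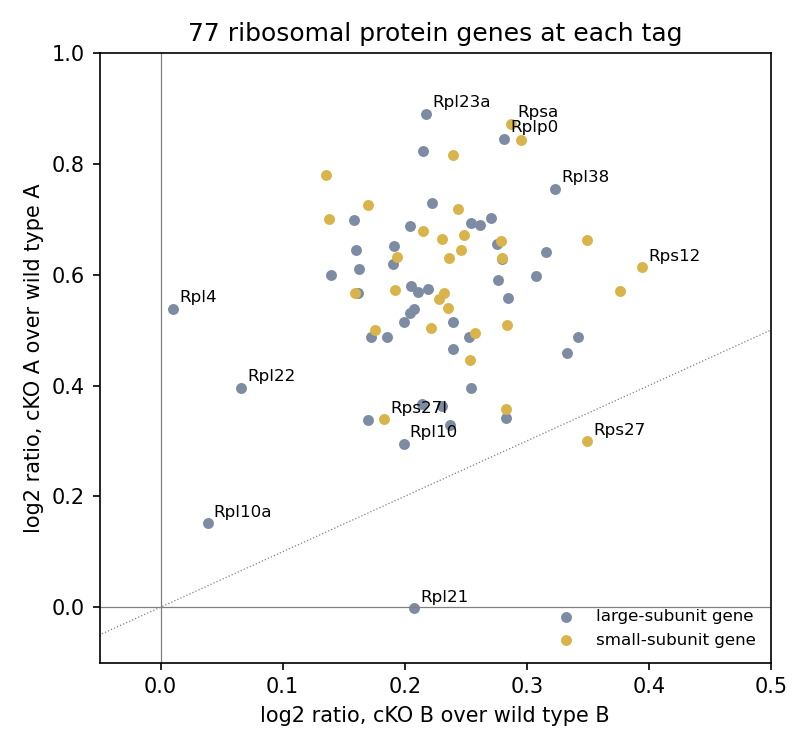
Log2 ratio of cKO A to wild-type A (vertical axis) against that of cKO B to wild-type B (horizontal axis) for 77 genes, with large-subunit and small-subunit genes in different colours; the dotted line marks equal ratios. Nearly all genes lie above that line, with medians of 0.57 and 0.23. Rpl4 and Rpl10a are near 0 on the horizontal axis, and Rpl21 is at 0 on the vertical axis.

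Among small-subunit genes the highest difference was that of Rpsa, which helps assemble the small subunit and also lies at the cell surface as a laminin receptor. It is at chr9:120127689-120132369 in mm10 and read 34654 and 41329 normalized counts in wild type and 63447 and 50430 in cKO. Both cKO libraries were above both wild-type ones, with a log2 difference of 0.58 (SE 0.22, limma adjusted p = 0.771). Rps29, a short zinc-binding protein of the small subunit head, read 12192 and 17632 in wild type and 21883 and 21636 in cKO, a difference of 0.57 (SE 0.23). Its cKO values were nearly equal, while its wild-type values were well apart.

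Rps6, the protein phosphorylated by S6 kinase downstream of mTOR, read 15426 and 19760 in wild type and 24456 and 23181 in cKO. Rps3, which lines the mRNA entry channel and also acts in DNA repair, read 39978 and 47108 against 58155 and 55458. Rps19, the gene most often mutated in Diamond-Blackfan anaemia, read 16527 and 21792 against 26172 and 27767. In all 3 the groups did not overlap, and the log2 differences were 0.45, 0.39 and 0.51. Rps14, whose loss is linked to the 5q- syndrome, read 26908 and 35966 against 41690 and 41136, again without overlap. Rps27a, made as a fusion with ubiquitin, read 18480 and 27010 in wild type and 25186 and 32199 in cKO. Here cKO A lay below wild-type B, so the groups overlapped.

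Levels between genes were compared per kilobase of the principal transcript. On that scale Rps9 was the highest member at 58502 normalized counts per kilobase, and Rps15 and Rps4x, also of the small subunit, reached 56870 and 54412. The median was 30678 for small-subunit and 25177 for large-subunit genes, and 553 for all genes tested. Rps9, a protein near the mRNA entry site, read 43332 and 47042 in wild type and 67714 and 55797 in cKO, with wild-type libraries closer together than for most members. Its log2 ratio of wild-type B to A was 0.12. Rps4x, a small-subunit gene on the X chromosome, read 36643 and 50918 against 64517 and 60127, a difference of 0.53 (SE 0.23). The level per kilobase rests on the annotated transcript. The low values of 3655 for Rpl24 and 4683 for Rps15a were computed over principal transcripts of 4920 and 5179 bases. The RefSeq start of Rpl24 lies outside the gene matched here, so its 4920 bases may not be those of its mRNA.

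Of the large subunit, the stalk was measured through Rplp0, its base, and Rplp1 and Rplp2, the dimers that recruit elongation factors. Rplp0 (chr5:115559467-115563727) read 43466 and 55581 normalized counts in wild type and 78099 and 67536 in cKO, a log2 difference of 0.56 (SE 0.22, limma adjusted p = 0.771). Rplp1 read 18109 and 25200 against 29217 and 30208, and Rplp2 read 16366 and 23058 against 25588 and 25770. All 3 had cKO above wild type without overlap. For each of them the distance between wild-type libraries was larger than the distance from wild-type B to cKO B.

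Rpl5 and Rpl11, which enter the ribosome with 5S rRNA and bind Mdm2 when ribosome assembly fails, read 21006 and 28980 against 31835 and 31927, and 15865 and 21130 against 22668 and 24264. Rpl23, which lies at the subunit interface and also binds Mdm2, read 27278 and 38646 against 40394 and 43241. The differences of these 3 were 0.37, 0.36 and 0.36, a little under the median member. Rpl41, with the shortest coding sequence of the family at 78 bases, read 18754 and 24117 against 26309 and 27432, a difference of 0.34.

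Rpl23a, at the exit of the nascent peptide, had the highest ratio at tag A. It read 17984 and 26734 in wild type and 33338 and 31078 in cKO, with log2 ratios of 0.89 at tag A and 0.22 at tag B. Rpl38 read 8976 and 12703 against 15152 and 15891, a difference of 0.54 (SE 0.22). Rpl18 read 13991 and 16066 against 22774 and 19382, a difference of 0.49 (SE 0.19), with wild-type libraries that were closer together than most. Rpl4, the member with the most reads, took 4.05% and 3.89% of the family's reads in wild type and 3.86% and 3.35% in cKO. It read 57645 and 73756 against 83743 and 74273, so that at tag B its log2 ratio was 0.01.

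The large-subunit genes with the smallest differences, apart from Rpl3l, were Rpl10a, Rpl21, Rpl22 and Rpl10. Rpl10a, a protein of the L1 stalk, read 16039 and 20716 against 17820 and 21277, a difference of 0.10 (SE 0.21). Rpl21 read 895 and 1051 against 894 and 1213, also 0.10 (SE 0.25). Both overlapped between groups, and their sign turned without wild-type A (-0.089 and -0.012) and without cKO B (-0.033 and -0.12). Rpl22, which also binds RNA outside the ribosome, read 12032 and 15674 against 15837 and 16408. Rpl10, which completes the large subunit late in its maturation, read 17716 and 24915 against 21738 and 28602.

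The level of Rpl21 was low for the family at 546 normalized counts per kilobase, as was that of Rpl29 at 1254, where the median tested member had 26052. Ribosomal protein genes have many processed copies, and reads that fit a gene and a copy equally well may have been lost or divided in the authors' counting. GENCODE M21 names 297 such loci ending in -ps for 59 of the 80 members, 15 of them for Rpl21 and 3 for Rpl29. Rps12 and Rpl31 had the most named copies, 24 each, and stood at 38764 and 20586 normalized counts per kilobase. Tested members with a named copy had a median of 25845 normalized counts per kilobase and those without had 33162. How much of the family's level is lost in this way was not tested.

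The paralogs told apart by symbol ranged from common to nearly silent. Rps27l, a copy of Rps27 known as a p53 target, had 52.1 and 47.8% of the level per length of Rps27 in wild type and 53.5 and 42.6% in cKO. Rps27 read 3830 and 5919 against 4716 and 7543, and Rps27l read 2886 and 4096 against 3652 and 4650. Both overlapped between groups, with differences of 0.32 (SE 0.32) and 0.26 (SE 0.25). For Rps27 the sign turned without cKO B, at -0.014.

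Rpl3l (chr17:24727820-24736143) read 32.6 and 38.0 normalized counts in wild type, 0 in cKO A and 13.2 in cKO B, from 43, 55, 0 and 20 reads. It was the member just above the filter on low values. Both cKO libraries were below both wild-type ones, with a fitted log2 difference of -3.26 (SE 2.01, limma adjusted p = 0.771) that depends on the pseudocount. Against a floor of 3 reads in cKO A it was at least 3.89-fold lower at tag A, and it was 2.87-fold lower at tag B. It reached 0.135% of the level per length of Rpl3 in each wild-type library and 0.0412% in cKO B. Rpl3 itself, at the peptidyl transferase centre, read 23709 and 27591 against 37253 and 31501. Rpl39l had 10, 4, 0 and 0 reads, and Rpl10l had none in any library, while the main forms Rpl39 and Rpl10 were abundant.

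A few genes that encode cytosolic ribosomal proteins or their copies have symbols outside the rule. Rps3a1 read 25518 and 36140 in wild type and 39625 and 42063 in cKO, and Fau, made as a fusion with a ubiquitin-like sequence, read 11627 and 13300 against 19880 and 15802. Both lay above wild type in both cKO libraries, with log2 differences of 0.43 and 0.51, neither of them called. Among the copies, Rpl36al read 2810 and 3419 against 4448 and 3761. Rpl7l1 and Rpl22l1 overlapped between groups. Rpl22l1 had 53.9 and 78.6% of the level per length of Rpl22 in wild type and 49.1 and 87.6% in cKO, so that it split by tag rather than by group.

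Ribosomal protein transcripts are short, with a median principal transcript of 886.5 bases (345 to 5179) against 3028 for all genes tested, and short transcripts outside the family were also higher. Among other genes of up to 500 bases (n = 108) the median log2 ratio at tag A was 0.30, and for over 500 to 1000 bases (n = 741) it was also 0.30. It was 0.13 for transcripts of up to 2000 bases, -0.04 up to 4000, -0.19 up to 8000 and -0.42 for longer ones. At tag B the same classes had 0.11, 0.09, 0.02, -0.01, -0.01 and -0.03. Between the wild-type libraries, as B over A, they had 0.32, 0.24, 0.08, -0.01, -0.06 and -0.07. The gradient with length at tag A was thus wide, and the wild-type libraries had a smaller one. In the same classes cKO A over wild-type B had -0.06, 0.05, 0.06, -0.04, -0.15 and -0.34. For cKO A over cKO B the medians were -0.15, -0.04, 0.02, -0.01, -0.12 and -0.29. Against the B libraries cKO A was therefore not raised in the class of up to 500 bases, and it was lowest in the longest class.

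Ribosomal protein genes lay above other genes of the same length in the 4 classes with at least 4 members. Their medians at tag A were 0.57 (n = 11), 0.59 (n = 37), 0.57 (n = 24) and 0.58 (n = 4), with no gradient. At tag B they were 0.26, 0.23, 0.23 and 0.18, and between the wild-type libraries 0.51, 0.46, 0.40 and 0.42. The share of other genes with both cKO libraries above both wild-type ones was 33.3% up to 500 bases and 40.2% for over 500 to 1000, against 17.2% of all genes. In each of these classes the distance from other genes was larger between the wild-type libraries than between cKO B and wild-type B.

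**Figure D4:**
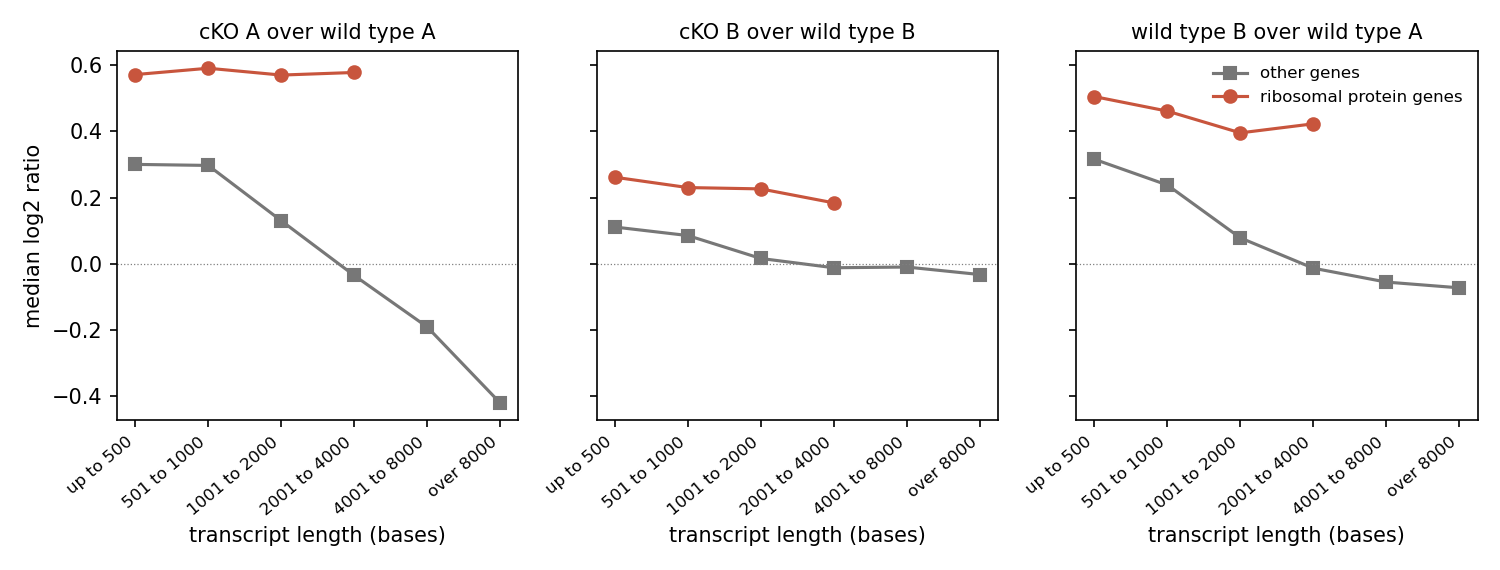
Median log2 ratio of cKO A to wild-type A, cKO B to wild-type B and wild-type B to wild-type A in classes of principal transcript length (bases), for ribosomal protein genes (circles) and all other tested genes (squares); classes with fewer than 4 ribosomal protein genes have no circle. Other genes fall from 0.30 to -0.42 at tag A, while ribosomal protein genes stay between 0.57 and 0.59.

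With each library's smooth trend on transcript length removed, an alternative chosen after the data were seen, the median difference between cKO and wild type was 0.22 and 74 of 78 members were above 0. The within-tag medians became 0.31 and 0.14, and the median between the wild-type libraries became 0.23. Both cKO libraries then lay above both wild-type ones for 47 of 78 members, where 17.6% of all genes did. Members thus stayed above 0 in each of these medians, at smaller values than before, and Rpl10a, Rps27 and Rps27l turned to -0.13, -0.029 and -0.032.

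Within the family the length that ordered the genes was that of the coding sequence, and it did so between libraries of the same group. Over 77 members, Spearman's rho of coding length with the ratio of wild-type B to A was -0.58 (Pearson -0.50), and with the ratio of cKO A to cKO B it was 0.44 (Pearson 0.41). With the ratios of cKO to wild type rho was 0.12 for tag A and -0.26 for tag B. The points share their libraries and no p is given. Rpl24 entered here, and in the longest class below, with an annotated coding length of 3153 bases. The next longest was Rpl4 with 1260. The RefSeq start of Rpl24 lies outside the matched gene, chr16:55973883-56008913. The 3153 bases and the transcript length of 4920 bases are those of the matched gene, and may not be those of the Rpl24 mRNA. The 10 genes with coding sequences of up to 300 bases had a median of 0.50 for wild-type B over A and -0.13 for cKO A over B. The 45 genes of the middle class had 0.48 and -0.15, and the 22 of the longest class, with at least 612 bases, had 0.36 and 0.09. Relative to their partners, cKO A and wild-type A were therefore both lower in the family's genes of shorter coding sequence. Over 14054 other genes rho was -0.23 for wild-type B over A and -0.14 for cKO A over cKO B, the latter opposite in sign to the family's.

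**Figure D5:**
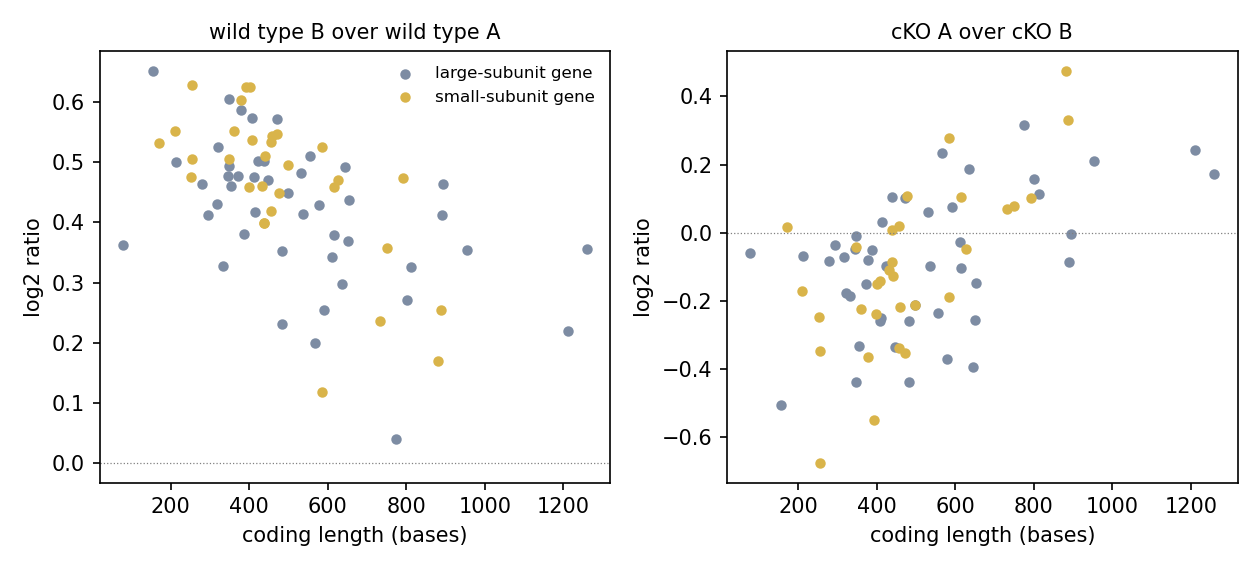
Log2 ratio of wild-type B to wild-type A and of cKO A to cKO B against coding length (bases) for ribosomal protein genes, coloured by subunit; Rpl3l and, for its length, Rpl24 are not drawn. The cloud falls with coding length in the wild-type pair and rises in the cKO pair, with rho of -0.58 and 0.44 over 77 genes.

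The 16 genes whose groups overlapped had a median coding length of 429 bases, against 471 for the 61 without overlap. They included Rps27, Rps27l, Rpl39 and Rpl34, named after their values were seen. The shortest transcripts were those of Rps27 (345 bases), Rpl36 (383), Rps29 (390) and Rps21 (394). Their log2 differences were 0.32, 0.39, 0.57 and 0.40, within the family's range of 0.10 to 0.58. Counted from the highest difference, they ranked 65, 45, 2 and 40 among the 78 tested members. The longest principal transcripts by the annotation, those of Rps15a, Rpl24, Rps20 and Rpl18, had 0.32, 0.29, 0.39 and 0.49. Rpl24 is listed by the length of its matched gene, which does not include its RefSeq start.

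Elongation and initiation factors had medians above 0 and below that of the family. In these and the following lists of translation genes 0 passed limma's test, and 1, Fau, had an unadjusted p under 0.05. Of 12 elongation and termination factors, 11 were above 0, with a median log2 difference of 0.24 (0.37 at tag A, 0.12 at tag B). Eef1a1, which brings tRNA to the ribosome, read 313753 and 375845 in wild type and 528913 and 409208 in cKO. Of 38 initiation factors 32 were above 0, with a median of 0.22 (0.37 and 0.07). Eif4a1, the helicase of the cap-binding complex, read 40981 and 41671 against 50913 and 45250.

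Other genes known for TOP mRNAs or tied to the ribosome were the list closest to the family. All 20 tested were above 0, against 46.7% of all genes, with a median of 0.36 (0.54 at tag A, 0.13 at tag B). In 15 of them both cKO libraries lay above both wild-type ones, against 17.2% of all genes. This list shares genes with the elongation and initiation lists. Mitochondrial ribosomal proteins, which are built into another ribosome and have short mRNAs with a median of 1288 bases, were above 0 for 60 of 76, with a median of 0.21 (0.31 and 0.10). Both cKO libraries lay above both wild-type ones for 46 of these 76, for 6 of 12 elongation and termination factors and for 20 of 38 initiation factors. Mrpl3 read 4076 and 4339 against 6382 and 4777, and Mrpl24 read 4989 and 5912 against 4373 and 5388.

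Ribosome biogenesis factors, which make and process rRNA in the nucleolus, had a median close to 0. It was 0.05 (0.04 at tag A, 0.06 at tag B), against -0.03 over all genes. Of 62, 38 were above 0, against 46.7% of all genes. At tag A 36 were above 0 and at tag B 45, against 46.8% and 49.3% of all genes. In 15 (24.2%) both cKO libraries lay above both wild-type ones, against 17.2% of all genes. Ncl, the nucleolar protein nucleolin, read 43948 and 46906 against 55168 and 50602, and Npm1 read 27016 and 36104 against 35985 and 39915. Regulators tied to ribosome supply and stress, such as mTOR and p53 pathway genes, were above 0 for 5 of 15, with a median of -0.08. Differences between the lists were not tested.

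Markers of the cell types that the sort could hold also differed in level between the libraries. All 12 microglia markers were lower in both cKO libraries than in both wild-type ones, against 22.3% of all genes, with a median log2 difference of -2.63. Their summed level was 24726 and 23945 normalized counts in wild type and 2336 and 11378 in cKO, with Aif1 at 0 in cKO A. Of 12 rod precursor markers 11 were below 0, with a median of -0.80. Progenitor markers were above 0 for 11 of 12, with a median of 0.16 and sums of 452952 and 453587 against 639551 and 501430. Ccnd1 alone gave 388895 of the sum in cKO A. Markers of S, G2 and M phase were above 0 for 11 of 12, with a median of 0.38 (0.62 at tag A, 0.11 at tag B), near the family's 0.40. Their sums were 179261 and 187188 against 228958 and 198187. Of 7 tested endothelial markers 4 were above 0, and 5 of the 10 in the table were at 0 in cKO A (Emcn, Tie1, Tek, Pecam1 and Cdh5). All 8 red blood cell markers in the table were at 0 in cKO A, Hbb-y in every library, and only Hbb-b1 was tested. None of these genes was called by limma, where 11 microglia and 9 rod markers had an unadjusted p under 0.05, against 1.89% of all genes. By the authors' own deposited adjusted p, however, 8 of the 12 microglia and 3 of the 12 rod markers were under 0.05. They were among the 51 tested genes under that threshold, and no progenitor, cycle, endothelial or red blood cell marker was. Between the wild-type libraries, as B over A, the median log2 ratio was 0.014 for progenitor and -0.12 for cycle markers, which ran from -0.69 to 0.45, against 0.46 for the ribosomal protein genes. The part of these markers' cells in the difference between the groups was not tested.

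Leaving out cKO B, so that the shallow cKO A library stood alone for its group, was the setting in which members passed the test. There limma called 10 members higher, where 12.8% of all genes were called higher, and Rpl3l lower. The highest was Rpsa at a log2 difference of 0.75 (SE 0.23, adjusted p = 0.0119), and Rplp0 had 0.67 (SE 0.25, adjusted p = 0.0328). In that fit 39.2% of all genes were called. The spread of the lone cKO library was taken from that of the wild-type ones. With cKO A left out instead, 0 members were called, and 0.522% of all genes were, with 0.0206% called higher.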

How the data were processed

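The deposited table holds normalized counts per gene (a signal scaled per library by the authors) with the authors' own p-values. FastQC, TopHat, HTSeq and DESeq and the build mm10 are named per the submitters' processing notes, without versions. The library kit is strand-specific per the labels; the sources used here do not give the strand setting of the counting. Values in each library were whole multiples of 1 read's worth (100% within 0.01 reads), so reads were recovered and used for shares and for edgeR and DESeq2. Wild-type columns were mapped by their headings. Both cKO columns carry the same replicate number in their headings, so they were assigned to the group and not to a sample.

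The main test was limma 3.58.1 with a mean-dependent prior (R 4.3.3) on log2(normalized count + 1), for genes with a mean of at least 10, 2 libraries against 2, with Benjamini-Hochberg adjustment over 14480 genes at 0.05. Fold changes are on that log2 scale, which understates those of low genes. Where nothing ties a library to separate animals, p-values measure only the spread between these libraries. Alternatives used edgeR 4.0.16, DESeq2 1.42.0, other pseudocounts, filters and scalings, and left out each library in turn. Scripts were tested on simulated data.

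Lengths are those of the APPRIS principal transcript in GENCODE M21, where 21798 of 22690 genes (96.1%) were found by Ensembl gene identifier. Promoters are from RefSeq (GRCm38.p6).

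Members named are those with the 5 highest and 5 lowest differences, the 5 highest per kilobase, the 4 shortest and 4 longest transcripts, those under the filter, a fixed set by role and the paralog pairs. In other lists the 2 genes with the highest mean were eligible. Some genes that this rule names are not reported here. Members, lists and tests were chosen with earlier results of these data known.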

Additional observations from a re-analysis of the deposited data

How the results depend on the processing

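The count of 0 ribosomal protein genes called was the same under all alternatives except the leave-one-out fits, where it ran from 0 to 11. The median log2 difference of 0.40 kept its direction throughout and was 0.17 to 0.62 with 1 library left out, 0.49 after rescaling to equal medians, a shift of 0.11 for cKO A, and 0.22 with the length trend removed. The small-to-large ratio by medians of members gave -0.0231, reversed from 0.0236; the cause was not tested. Spearman's rho with transcript length at tag A was 0.01, and 0.12 with coding length.

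Among single genes 11 values reversed, and the cause was not tested. With 1 library left out Rpl10a ran from -0.089 (without wild-type A; -0.033 without cKO B) to 0.28, Rpl21 from -0.12 (without cKO B; -0.012 without wild-type A) to 0.32, and Rps27 from -0.014 (without cKO B) to 0.66. With the length trend removed Rpl10a had -0.13, Rps27 -0.029 and Rps27l -0.032. The length-trend values were the same with the replicate block.

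With the tag as a replicate block, limma gave a median of 0.40 and called 0 members, with a lowest adjusted p of 0.448; 18 members (23.1%) had an unadjusted p under 0.05, against 9.50% of all genes. edgeR with the block gave 0.41 and DESeq2 with the block gave 0.40, and both called 0 members; unadjusted, 11 members (14.1%, against 6.66% of all genes) and 46 (59.0%, against 8.13%) were under 0.05. Over all genes DESeq2 called 45 with the block and 1 without it. The deviations of same-tag libraries from their group means correlated at 0.26 over 14480 genes, but the labels do not say that a tag marks a shared experiment.

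Depth limits Rpl3l and Rpl39l: 3 reads in cKO A are worth 8.38 normalized counts.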
